A study of Mus musculus with 12 samples.

Results

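The Toll-like receptors described here are 10 genes, Tlr1, Tlr2, Tlr3, Tlr4, Tlr5, Tlr6, Tlr7, Tlr8, Tlr9 and Tlr13, taken by symbol from a table of 54532 mouse genes. All 10 were counted in every library and passed the filter on low counts, which left 15014 genes for testing. They were followed in tumour-associated macrophages (TAMs) sorted from the gliomas of 6 mice, 4 male and 2 female, whose age is not given in the sources used here. From each mouse a rhodamine-positive and a rhodamine-negative sort were sequenced, so that the groups hold 6 libraries each and pair by animal. Both groups share the genotype label Ntv-a_Ink4a/Arf_KO, which names loss of the Ink4a/Arf tumour suppressor locus in mice whose Nestin-expressing cells carry the receptor for an avian retrovirus. They also share the treatment, an intravenous dose of rhodamine-labelled perfluoro-crown-ether nanoparticles 24 hours before the tumour was taken, and there is no group without nanoparticles. Cells were gated as positive for CD45 and CD11b and negative for Ly6C, which the gate as written lists 2 times, and more than 2000 cells went into each sort. The question put by the series is how TAMs that took up the particles differ from those that did not.

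Toll-like receptors are membrane proteins of innate immune cells that bind conserved parts of microbes and some products of damaged tissue. Those of the cell surface bind lipids, lipopeptides and proteins: TLR4 binds lipopolysaccharide, TLR2 pairs with TLR1 or TLR6 to bind lipopeptides, and TLR5 binds bacterial flagellin. Those of endosomes bind nucleic acids that have been taken up: TLR3 binds double-stranded RNA, TLR7 and TLR8 single-stranded RNA and its breakdown products, TLR9 DNA with unmethylated CpG, and the mouse receptor TLR13 bacterial ribosomal RNA. Ligand binding leads through adaptor proteins, MyD88 for most and TRIF for TLR3 and TLR4, to NF-kB and interferon regulatory factors. Microglia and other macrophages of the brain are known to carry several of these receptors.

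Stretches of identical sequence bear on how the counts of a pair of surface receptors can be read. Tlr1 (chr5:64924679-64933563, minus strand, mm10) and Tlr6 (chr5:64952031-64960097, minus strand) are neighbours that arose by duplication, and their transcripts share 454 stretches of 50 bases, which are 13.6% of those of Tlr1 and 12.3% of those of Tlr6. The longest identical run is 229 bases of coding sequence, at chr5:64925537-64925765 in Tlr1 and chr5:64953828-64954056 in Tlr6. It covers coding bases 1468 to 1696 of Tlr1 and 1507 to 1735 of Tlr6, within the only coding exon of each gene. The 454 shared stretches do not all lie inside this run. A read from inside any identical run cannot be placed. How the authors' counting treated such reads is not given in the sources used here, so the values of Tlr1 and Tlr6 carry that uncertainty. Only the longest run is printed, in lower case and on the strand of the genes.
Tlr1 and Tlr6 shared run: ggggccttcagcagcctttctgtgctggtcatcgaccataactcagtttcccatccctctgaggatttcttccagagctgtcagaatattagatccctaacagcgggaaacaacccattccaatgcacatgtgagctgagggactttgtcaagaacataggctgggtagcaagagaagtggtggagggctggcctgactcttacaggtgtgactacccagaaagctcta

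Promoters are shown for the surface receptors Tlr2 and Tlr5, which passed the sort test in opposite directions. RefSeq windows on GRCm38.p6, from 250 bases before to 50 after a gene start, were held for 8 of the 10 receptors. Both windows were searched on both strands for GGGNNNNNCC, a loose form of the site bound by NF-kB, and capitals mark every matched base. Tlr2 (chr3:83841559-83841858, minus strand) had 5 matches that overlap into 2 blocks. Those blocks begin 173 and 9 bases before the RefSeq start. In GENCODE, the source of the gene coordinates in this text, Tlr2 starts at chr3:83841767, further upstream within the same window. The positions therefore hold for the RefSeq start only. Tlr5 (chr1:182954538-182954837, plus strand) had 1 match on the opposite strand, which begins 20 bases before the start.
Tlr2 promoter: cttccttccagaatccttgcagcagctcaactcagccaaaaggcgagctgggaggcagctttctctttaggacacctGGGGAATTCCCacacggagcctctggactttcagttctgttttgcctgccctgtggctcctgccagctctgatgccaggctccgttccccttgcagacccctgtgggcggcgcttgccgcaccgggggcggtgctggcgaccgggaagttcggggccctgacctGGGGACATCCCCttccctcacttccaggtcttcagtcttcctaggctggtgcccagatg
Tlr5 promoter: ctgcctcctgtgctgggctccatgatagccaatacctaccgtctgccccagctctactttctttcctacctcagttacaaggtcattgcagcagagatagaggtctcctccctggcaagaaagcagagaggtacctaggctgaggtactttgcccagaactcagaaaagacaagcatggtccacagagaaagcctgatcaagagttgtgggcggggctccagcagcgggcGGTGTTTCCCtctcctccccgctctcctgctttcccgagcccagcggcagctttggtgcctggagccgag
The letters GGGNNNNNCC occurred in 50.8% of 32851 promoter windows of the same length, so a match is common and is given as a description of the sequence only. Among the other receptors with a window, Tlr3 had 3 matches and Tlr6 had 1 in 1 of its 2 windows. The core of the PU.1 site, GAGGAA, occurred in 28.3% of windows, and among the receptors it was found at Tlr1, Tlr8, Tlr9 and Tlr13. The interferon response letters GAAANNGAAA occurred in 3.44% of windows and 2 times in a window of Tlr6.

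The libraries held 13073189 to 17379314 counts in rhodamine-positive sorts and 13421387 to 16167832 in rhodamine-negative sorts, and the 10 receptors took 0.0745% to 0.112% of them in rhodamine-positive and 0.0771% to 0.102% in rhodamine-negative libraries. Values are CPM, counts relative to the library total after TMM scaling (a trimmed mean of log ratios between libraries), whose factors were 0.923 to 0.980 in rhodamine-positive and 1.02 to 1.15 in rhodamine-negative libraries. Markers of microglia were abundant, with a summed 9206 to 13140 CPM over 7 genes in rhodamine-positive and 4092 to 12431 CPM in rhodamine-negative sorts. Markers of T and NK cells (6 genes) summed to at most 1.25 CPM in rhodamine-positive and 5.09 CPM in rhodamine-negative sorts, and those of neutrophils (6 genes) to at most 3.17 CPM in rhodamine-positive and 6.92 CPM in rhodamine-negative sorts. Calls of the other markers come from the sort test described below. It called 26.2% of the 15014 genes tested, 1955 higher and 1986 lower. All 7 markers of conventional dendritic cells were lower in rhodamine-positive sorts, at a summed 145 to 264 CPM against 393 to 1457 CPM in rhodamine-negative sorts. Of 6 monocyte markers 3 were lower and 3 did not pass, among them Chil3 with a positive estimate. The 6 summed to 45.5 to 112 CPM in rhodamine-positive and 235 to 593 CPM in rhodamine-negative sorts. Basophil and mast cell markers were lower for all 3 testable genes, with sums over 6 genes of 0.134 to 7.28 CPM in rhodamine-positive and 3.60 to 162 CPM in rhodamine-negative sorts. Of 5 testable markers of border-associated macrophages 3 were higher, with sums over 6 genes of 723 to 1117 CPM in rhodamine-positive and 352 to 644 CPM in rhodamine-negative sorts. Of 6 markers of glioma and oligodendrocyte lineage 4 were lower, with sums of 32.1 to 76.7 CPM in rhodamine-positive and 74.4 to 115 CPM in rhodamine-negative sorts. Of the genes of the gate, Ptprc (CD45) was lower by 0.56 on the log2 scale and Itgam (CD11b) did not pass. Of 4 testable markers of B and plasma cells, Jchain was lower, at 0.0860 CPM in rhodamine-positive and 18.6 CPM in rhodamine-negative sorts, and the list of 6 summed to 22.1 to 40.7 CPM in rhodamine-positive and 29.5 to 70.2 CPM in rhodamine-negative sorts. Of 5 testable markers of plasmacytoid dendritic cells, Ccr9 was lower and Bst2 higher (not past the threshold without mouse 3 or 6), and the list of 6 summed to 363 to 689.7 CPM in rhodamine-positive and 305 to 486 CPM in rhodamine-negative sorts. Of the defining markers, Ly6g was at 0 in 11, Mcpt8 in 5 and Jchain in 4 of 12 libraries. The part of these cell types in any receptor's difference was not tested, and in bulk sorts fewer cells of a type and less RNA per cell cannot be told apart.

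Among the Toll-like receptors of TAMs that carried nanoparticles, Tlr7 and Tlr2 were higher, Tlr5 was lower, and the other 7 did not pass the test. Tlr7, an endosomal receptor, was 1.43-fold higher and Tlr2, the most abundant surface receptor, was 1.26-fold higher in rhodamine-positive sorts. Tlr5, a surface receptor with few counts, was 2.31-fold lower. These 3 of 10 receptors passed edgeR's quasi-likelihood test with the mouse as a block and Benjamini-Hochberg adjustment over all genes, at a threshold of 0.05. Of all genes tested 26.2% passed, 1955 of them higher and 1986 lower, so that the share of receptors called was near that of all genes. The estimate was positive for 8 of 10 receptors, with a median of 0.21 on the log2 scale against -0.02 over all genes tested. With library size as the only scaling, the median over all genes was -0.18 and 7 of the 10 receptors had a positive estimate.

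**Figure D1:**
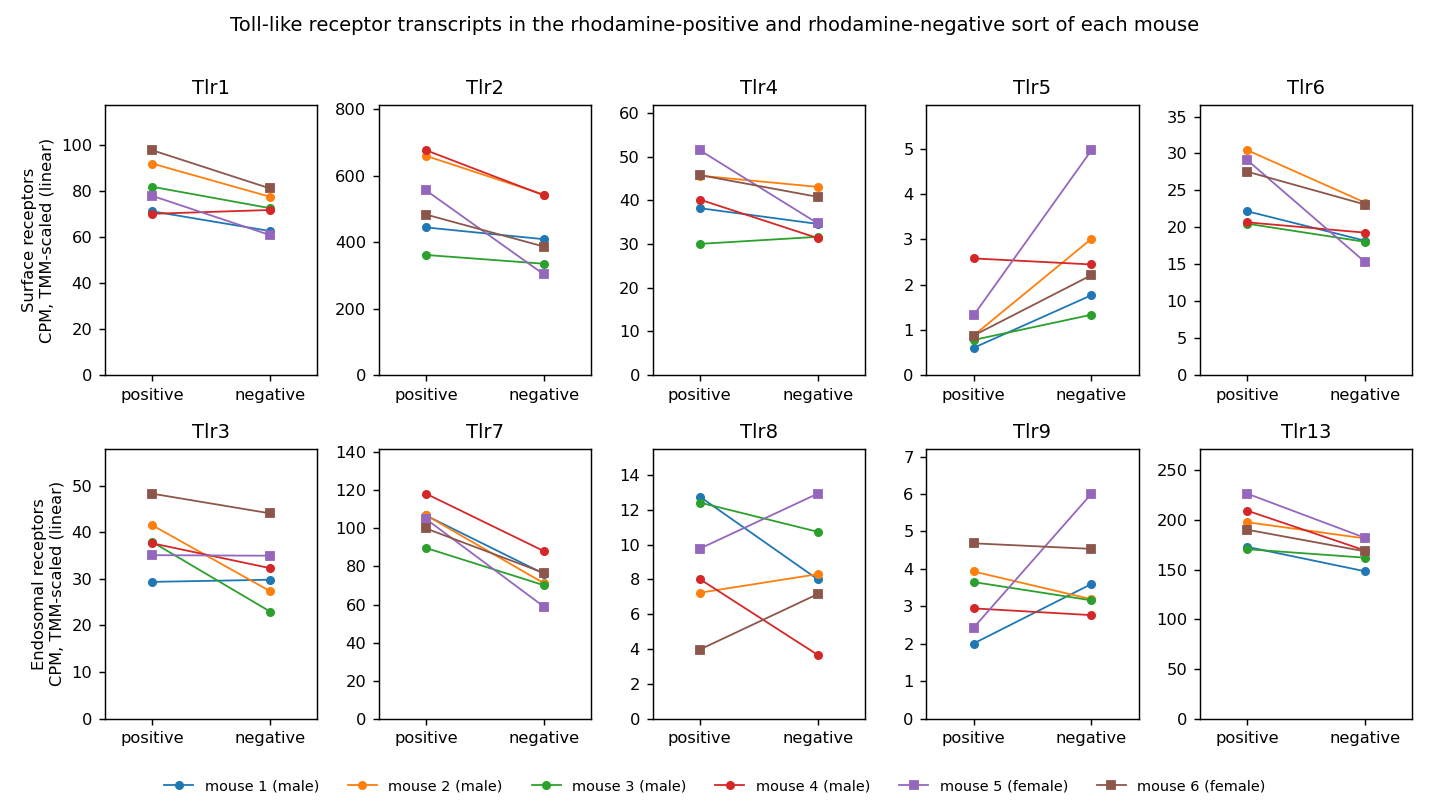
TMM-scaled CPM (y axis, linear, a scale for each panel) of the 10 receptors in the rhodamine-positive and rhodamine-negative sort of each mouse, surface receptors above and endosomal receptors below. Each line joins the 2 sorts of 1 mouse, with circles for male and squares for female mice. The lines of Tlr2, Tlr6, Tlr7 and Tlr13 all slope the same way, and Tlr5 slopes the other way in 5 of 6 mice.

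Tlr2 (ENSMUSG00000027995, chr3:83836272-83841767, minus strand) encodes the shared chain of the lipopeptide receptors. Its lowest, median and highest values were 361.5, 519 and 677 CPM in rhodamine-positive sorts, against 303, 398 and 543 CPM in rhodamine-negative sorts. The groups overlapped widely, while within each mouse the rhodamine-positive sort was the higher after TMM scaling, in 6 of 6 pairs. Relative to library totals alone, the rhodamine-positive sort of mouse 3 was the lower, with 4657 of 13983700 counts against 4774 of 13443100. Tlr2 averaged 530.2 ± 124 CPM in rhodamine-positive and 419.5 ± 102 CPM in rhodamine-negative sorts (SD, n = 6 each), a log2 fold change of 0.34 ± 0.10 (SE, adjusted p = 0.0328 in edgeR). The pair differences were 0.12, 0.28, 0.11, 0.32, 0.88 and 0.32 on the log2 scale in mice 1 to 6, with mouse 5 far above the others. The call was lost without mouse 2 (adjusted p = 0.0611), mouse 3 (0.0503), mouse 4 (0.0502) or mouse 6 (0.0761), and without the block it was 0.208. Over all alternatives the adjusted p in the tests run ranged from 0.00798 to 0.208, and with library size alone the log2 fold change was 0.18.

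Tlr1 and Tlr6, the chains that pair with Tlr2, had positive estimates that did not pass the test. Tlr6 (ENSMUSG00000051498) had 20.5, 24.9 and 30.4 CPM as lowest, median and highest in rhodamine-positive sorts, against 15.3, 18.7 and 23.3 CPM in rhodamine-negative sorts. After TMM scaling it was higher in 6 of 6 pairs while the groups overlapped. Relative to library totals alone, Tlr6 was lower in the rhodamine-positive sorts of mice 3 and 4. Its log2 fold change of 0.36 ± 0.13 (SE, 95% interval 0.08 to 0.63) had an adjusted p of 0.0556 in edgeR. Tlr6 passed with limma-voom (adjusted p = 0.0490), with an offset for GC content and length (0.0462) and without mouse 4 (0.0482), and its adjusted p ranged from 0.0462 to 0.277 over all alternatives. Mouse 5 again stood apart, with a pair difference of 0.92 against 0.10 to 0.38 in the other mice. Tlr1 (ENSMUSG00000044827) had 70.1 to 97.7 CPM in rhodamine-positive and 60.8 to 81.1 CPM in rhodamine-negative sorts. Its log2 fold change was 0.20 ± 0.08 (SE, adjusted p = 0.0946 in edgeR), with 5 of 6 pairs higher and a difference of -0.03 in mouse 4. Per kilobase of exon, Tlr1 lay above Tlr6 by 3.68 ± 0.50 times in rhodamine-positive and 4.08 ± 0.32 times in rhodamine-negative sorts (SD, n = 6 each), and the reads they share bear on this ratio.

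Tlr4 (ENSMUSG00000039005, chr4:66827584-66930284, plus strand), the lipopolysaccharide receptor, had 30.0, 42.9 and 51.5 CPM as lowest, median and highest in rhodamine-positive sorts, against 31.4, 34.7 and 43.1 CPM in rhodamine-negative sorts. The groups overlapped almost throughout. Its log2 fold change of 0.21 ± 0.10 (SE, 95% interval -0.02 to 0.43, adjusted p = 0.157 in edgeR) did not pass, with 5 of 6 pairs higher.

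Tlr5 (ENSMUSG00000079164, chr1:182954788-182976044, plus strand) was the receptor with the fewest reads, 9 to 76 counts per library. Its counts in mice 1 to 6 were 9, 14, 10, 35, 19 and 11 in rhodamine-positive sorts, against 26, 50, 19, 38, 76 and 37 in rhodamine-negative sorts. The rhodamine-positive sort was lower in 5 of 6 mice, and in mouse 4 the levels were close, at 2.58 CPM in the rhodamine-positive and 2.44 CPM in the rhodamine-negative sort. Tlr5 averaged 1.17 ± 0.73 CPM in rhodamine-positive and 2.62 ± 1.28 CPM in rhodamine-negative sorts (SD, n = 6 each), and it fell by 1.21 on the log2 scale (SE 0.35, adjusted p = 0.0245 in edgeR). The 95% interval of the fold was 0.256 to 0.733. The call was lost without mouse 1 (adjusted p = 0.0618), mouse 2 (0.0635), mouse 5 (0.0899) or mouse 6 (0.0630), without the block (0.0578) and in male mice alone (0.1995), whereas without mouse 4 the log2 fold change was -1.50. Over the alternatives that gave a value, its adjusted p ranged from 0.0102 to 0.1995.

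Tlr5 is set here beside marker lists of cell types and the induced genes, mouse by mouse. The pair difference of Tlr5 was -1.37, -1.64, -0.69, 0.07, -1.81 and -1.22 on the log2 scale in mice 1 to 6. The median pair difference of the 7 dendritic cell markers was -1.24 in mouse 4 and between -3.03 and -1.88 in the other mice. That of the 3 testable basophil and mast cell markers was -1.76 in mouse 4 and between -7.36 and -4.19 in the others. That of the 6 monocyte markers was -1.53 in mouse 4 and between -3.06 and -1.36 in the others. For the 6 markers of glioma and oligodendrocyte lineage it was -1.42 in mouse 4 and between -2.92 and -0.34 in the others. For the 4 testable B and plasma cell markers it was -0.51 in mouse 4 and between -1.67 and -0.12 in the others. The 16 genes induced by Toll-like receptor signals, described further on, had a median of -0.24 in mouse 4 and between -1.16 and -0.35 in the others. The part of any of these cell types in the fall of Tlr5 was not tested.

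Among the endosomal receptors, Tlr7 (ENSMUSG00000044583, X chromosome, 167304929-167330558, minus strand) differed most clearly between the sorts. Its lowest, median and highest values were 89.7, 106 and 118 CPM in rhodamine-positive sorts, against 58.8, 73.7 and 88.1 CPM in rhodamine-negative sorts. After TMM scaling, every rhodamine-positive library lay above every rhodamine-negative one, which held for 4.14% of all genes tested. Relative to library totals alone, the groups overlapped. Tlr7 then had 1156 of 13983700 counts in the rhodamine-positive sort of mouse 3 and 1370 of 15068900 in the rhodamine-negative sort of mouse 4. Tlr7 averaged 104 ± 9.38 CPM in rhodamine-positive and 73.5 ± 9.59 CPM in rhodamine-negative sorts (SD, n = 6 each), a log2 fold change of 0.51 ± 0.09 (SE, 95% interval 0.32 to 0.70, adjusted p = 0.00157 in edgeR). The pair differences were 0.49, 0.59, 0.36, 0.43, 0.83 and 0.38 in mice 1 to 6. Tlr7 passed in all 18 alternatives run, with adjusted p values from 7.44e-06 to 0.0107 and log2 fold changes from 0.35 with library size alone to 0.57. The sort accounted for 74.6% of the variance of its log2 CPM, and the mouse for 18.0%.

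Tlr8 (ENSMUSG00000040522), the relative of Tlr7 that lies 40.6 kb from it on the X chromosome, had no direction common to all mice. It had 3.97 to 12.8 CPM in rhodamine-positive sorts and 3.66 to 12.9 CPM in rhodamine-negative sorts. Its pair difference was positive in mice 1, 3 and 4, up to 1.10, and negative in mice 2, 5 and 6, down to -0.83. The log2 fold change of 0.09 ± 0.24 (SE, 95% interval -0.42 to 0.61, adjusted p = 0.806 in edgeR) did not pass, and its estimate was negative with library size alone (-0.07) and without mouse 1 (-0.03) or mouse 4 (-0.10). Tlr8 had 50 to 198 counts per library, against 901 to 1714 for Tlr7, and the difference between both fold changes was not tested.

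Tlr13 (ENSMUSG00000033777, X chromosome, 106143204-106160493, plus strand) was the most abundant endosomal receptor. Its lowest, median and highest values were 170.5, 194 and 226 CPM in rhodamine-positive sorts, against 148, 169 and 182 CPM in rhodamine-negative sorts. After TMM scaling the rhodamine-positive sort was higher in 6 of 6 mice with differences of 0.07 to 0.32, and the groups overlapped. Relative to library totals alone, Tlr13 was lower in the rhodamine-positive sorts of mice 2 and 3. Its log2 fold change of 0.20 ± 0.08 (SE, adjusted p = 0.0670 in edgeR) missed the threshold, and it passed with an offset for length (adjusted p = 0.0480) or for GC content and length (0.0427), within a range of 0.0427 to 0.697 over all alternatives. Per kilobase of exon, Tlr13 exceeded Tlr7 by 1.77 ± 0.17 times in rhodamine-positive and by 2.21 ± 0.41 times in rhodamine-negative sorts (SD, n = 6 each), a ratio that was lower in the rhodamine-positive sort of all 6 mice.

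Tlr3 (ENSMUSG00000031639, chr8:45395665-45411080, minus strand) had 29.3, 37.7 and 48.3 CPM as lowest, median and highest in rhodamine-positive sorts, against 23.0, 31.0 and 44.0 CPM in rhodamine-negative sorts. Its pair differences were 0.60 and 0.72 in mice 2 and 3 and between -0.02 and 0.22 in the other 4 mice, so that 2 mice held most of the log2 fold change of 0.28 ± 0.12 (SE, adjusted p = 0.113 in edgeR). Tlr3 exons overlap those of the antisense gene Gm45542 by 381 bases. That gene had 6 to 30 counts against 327 to 738 for Tlr3, and with the strand setting unknown the reads of the overlap cannot be told apart. Tlr9 (ENSMUSG00000045322, chr9:106222598-106226883, plus strand) had 30 to 92 counts per library, with 2.00 to 4.68 CPM in rhodamine-positive and 2.76 to 6.01 CPM in rhodamine-negative sorts. It was lower by 0.80 and 1.26 in mice 1 and 5 and higher by 0.05 to 0.29 in the other 4, and the log2 fold change of -0.24 ± 0.27 (SE, adjusted p = 0.543 in edgeR) did not pass. The 95% interval of Tlr9 ran from -0.83 to 0.35.

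**Figure D2:**
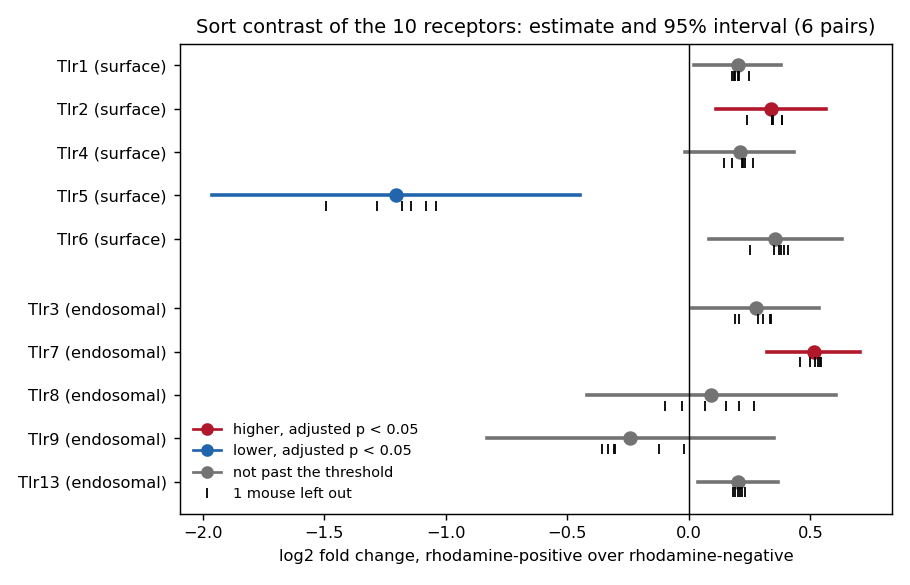
Log2 fold change of each receptor, rhodamine-positive over rhodamine-negative (x axis), with its 95% interval from the edgeR fit over 6 pairs, surface receptors above and endosomal receptors below. Ticks under each estimate are the values with 1 mouse left out. The interval of Tlr7 runs from 0.32 to 0.70, and the ticks of Tlr8 fall on both sides of 0.

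The surface and the endosomal receptors had close median differences between the sorts. Of the 5 surface receptors, Tlr2 was called higher and Tlr5 lower, and of the 5 endosomal receptors Tlr7 was called higher. The median log2 fold change was 0.21 over the surface and 0.20 over the endosomal receptors. Their difference was -0.24 in male mice alone and between -0.05 and 0.09 in the other alternatives. By mouse, the median pair difference of the surface receptors minus that of the endosomal receptors was -0.08, -0.04, -0.10, -0.21, 0.56 and 0.12 in mice 1 to 6, a mean of 0.04 ± 0.28 (SD, n = 6). It was below 0 in the 4 male mice and above 0 in the 2 female mice, with mouse 5 apart from all others. Summed per kilobase of exon, the surface receptors held 72.1 ± 2.88% of receptor transcripts in rhodamine-positive and 71.6 ± 4.03% in rhodamine-negative sorts (SD, n = 6 each), most of it Tlr2.

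**Figure D3:**
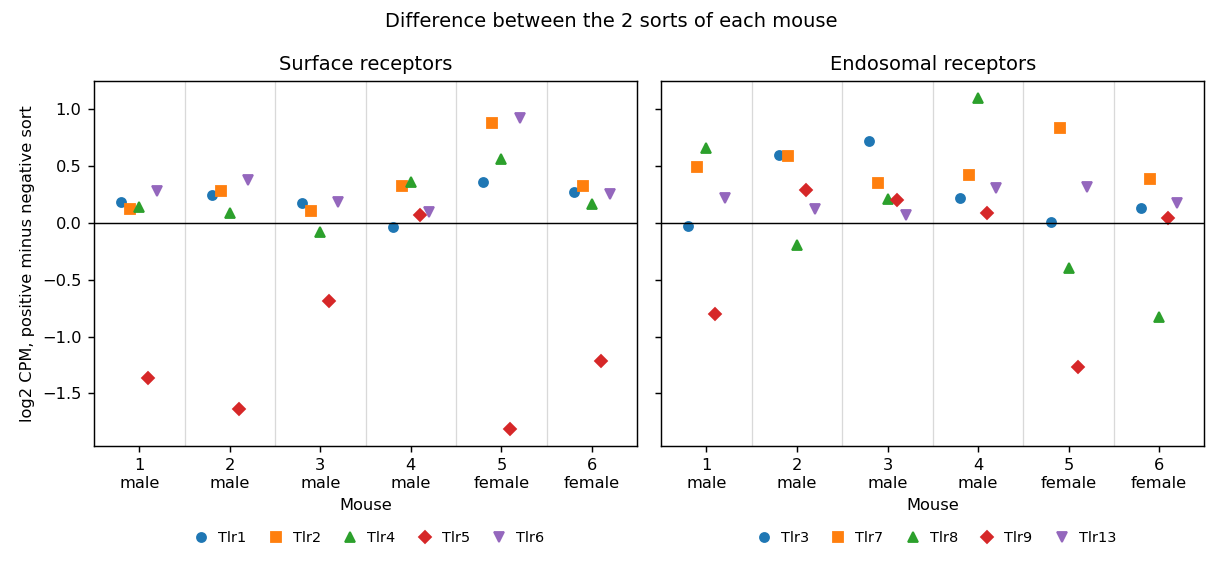
Pair difference of log2 CPM, rhodamine-positive minus rhodamine-negative (y axis), for each mouse (x axis, with its sex), surface receptors on the left and endosomal receptors on the right. Points are single receptors. In mouse 5 Tlr2 (0.88), Tlr6 (0.92) and Tlr7 (0.83) lie highest and Tlr5 (-1.81) lowest, and in mouse 4 Tlr5 lies at 0.07.

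Mouse 5 also stood apart in its microglia markers and in some other lists. The median pair difference of the 7 microglia markers was 1.12 in mouse 5, against -0.25 to 0.41 in the other mice, and all 7 were higher in its rhodamine-positive sort. For the 11 endolysosomal genes described further on, the median was 1.05 in mouse 5 and 0.04 to 0.57 in the others. For the 5 binding partners it was 0.79, against -0.38 to 0.40. The dendritic cell markers were lowest in mouse 5 (-3.03, against -2.57 to -1.24). Its medians for monocyte (-2.15) and border-associated macrophage markers (1.08) lay within the range of the other mice. The part of microglia or of any other list in the receptor differences of mouse 5 was not tested. Without mouse 5, Tlr7 (0.46) and Tlr2 (0.24 on the log2 scale, adjusted p = 0.0397 in edgeR) both remained past the threshold, and Tlr6 (0.25) did not pass.

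The levels of the receptors differed over a wide range, and their order was nearly the same in both sorts. Per kilobase of exon, Tlr2 stood highest with a mean of 176 ± 41.1 CPM per kilobase in rhodamine-positive and 139 ± 33.8 in rhodamine-negative sorts (SD, n = 6 each). Tlr13 followed with 45.2 ± 4.99 CPM per kilobase in rhodamine-positive and 39.1 ± 2.93 in rhodamine-negative sorts. Tlr7 and Tlr1 came next, at 25.6 and 24.4 CPM per kilobase in rhodamine-positive and 18.0 and 21.2 in rhodamine-negative sorts. They could not be ordered, with Tlr7 the higher in 3 of 6 rhodamine-positive and 1 of 6 rhodamine-negative libraries. Tlr4, Tlr3 and Tlr6 averaged 7.54, 7.35 and 6.73 CPM per kilobase in rhodamine-positive sorts, against 6.49, 6.12 and 5.24 in rhodamine-negative sorts, and neighbours among them exchanged places between libraries. Tlr8, Tlr9 and Tlr5 were lowest, at 2.52, 0.941 and 0.244 CPM per kilobase in rhodamine-positive sorts, against 2.36, 1.11 and 0.547 in rhodamine-negative sorts. Tlr8 exceeded Tlr9 in 11 of 12 libraries and Tlr9 exceeded Tlr5 in 12 of 12, though their ranges overlapped. Tlr2 alone made up 58.8 ± 4.60% of the receptor sum in rhodamine-positive and 57.5 ± 5.41% in rhodamine-negative sorts. The order was the same with the longest transcript as the length and with library size alone.

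**Figure D4:**
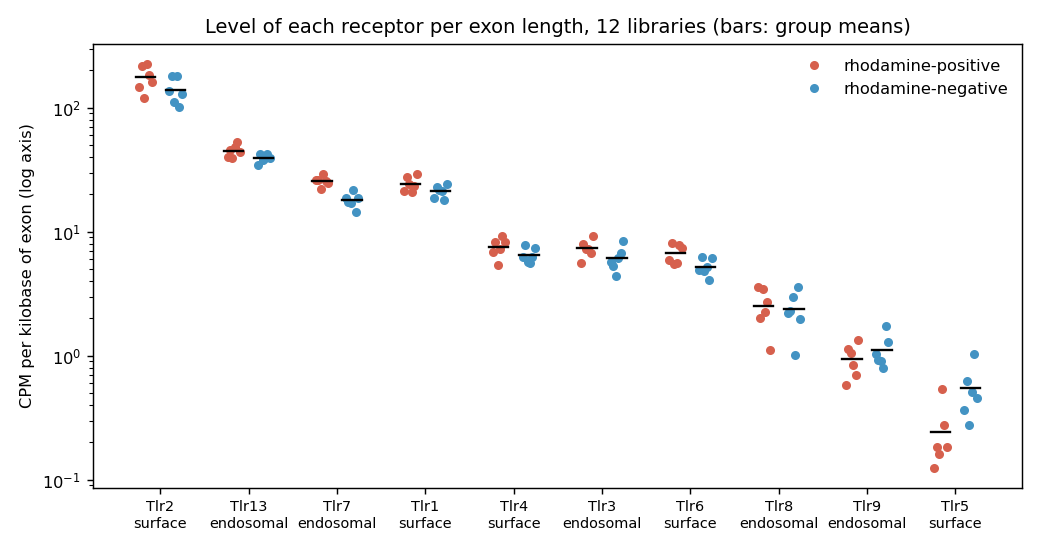
CPM per kilobase of exon (y axis, log scale) of each receptor in the 6 rhodamine-positive (left of each pair) and 6 rhodamine-negative libraries. Receptors stand in order of the mean level in rhodamine-positive libraries, with bars at the group means. Tlr2 lies above all others in every library, and the points of Tlr7 and Tlr1 and those of Tlr4, Tlr3 and Tlr6 share the same range.

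The variance of each receptor was split into shares of the mouse, the sort and the rest. The mouse takes up more degrees of freedom than the sort and as many as the rest. Its share is therefore sizeable even where mice do not differ. The shares are a description only, and a difference between mice was not tested. The mouse accounted for 65.4% of the variance of log2 CPM of Tlr2, 65.8% for Tlr8, 63.2% for Tlr1, 62.3% for Tlr4, 53.8% for Tlr3 and 52.4% for Tlr13, against 0.665% to 40.0% for the sort in these 6 genes. Only Tlr5 (47.0% sort, 37.5% mouse) and Tlr7 had the larger share with the sort, and for Tlr9 52.4% was in neither.

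Tlr7, Tlr8 and Tlr13 lie on the X chromosome, where Tlr7 is known to escape inactivation in part in some human immune cells, so levels were compared between the sexes. With both sorts of a mouse summed, Tlr7 had 80.5 to 86.3 CPM in the 2 female and 80.5 to 102 CPM in the 4 male mice, a log2 difference of -0.12 ± 0.13 (SE). The differences of Tlr8 (-0.06 ± 0.34) and Tlr13 (0.10 ± 0.13) were likewise within their errors. None of the 10 receptors passed edgeR's test of female against male level (lowest unadjusted p = 0.0592, for Tlr3), which called 46 genes, 0.306% of those tested. The edgeR test of a difference in the sort effect between the sexes called 0 of 15014 genes, with 1160 genes (7.73%) at an unadjusted p under 0.05, and no other tool was run on that question. The closest receptor was Tlr8, whose sort effect was -0.61 in female and 0.44 in male mice, a difference of -1.05 ± 0.40 (SE, unadjusted p = 0.0246, adjusted p = 0.618).

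Other receptors of the family and its kin differed among themselves. Tlr11, a mouse receptor for profilin of Toxoplasma, had 0 to 32 counts per library and fell by 2.59 on the log2 scale (SE 0.64, adjusted p = 0.0119 in edgeR), at 0.230 ± 0.263 CPM in rhodamine-positive and 1.19 ± 0.507 CPM in rhodamine-negative sorts (SD, n = 6 each). It was lower in 6 of 6 pairs, with 2 libraries at 0, and did not pass in male mice alone (adjusted p = 0.0841). Tlr12, its partner in profilin binding, averaged 26.9 ± 15.5 CPM in rhodamine-positive and 27.5 ± 17.7 CPM in rhodamine-negative sorts and did not pass. Cd180, a receptor of similar build that lacks the signalling domain, was 0.41 ± 0.13 (SE) higher on the log2 scale, in 4 of 6 pairs. It passed in 9 of 18 alternatives, and not without mouse 2, 3, 5 or 6, with an adjusted p of at most 0.230 over all alternatives.

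Among genes that help the receptors bind, fold and reach the endosome, 1 of 5 binding partners and 1 of 6 genes for folding and transport were called, against 26.2% of all genes. Of the binding partners, Lbp, which hands lipopolysaccharide to CD14, was higher by 1.18 ± 0.22 (SE) at 8.19 ± 4.18 CPM in rhodamine-positive and 3.57 ± 1.85 CPM in rhodamine-negative sorts. Cd14 averaged 699 ± 110.2 CPM in rhodamine-positive and 835 ± 259 CPM in rhodamine-negative sorts, and Ly96, which encodes the TLR4 partner MD-2, 20.5 ± 3.27 CPM in rhodamine-positive and 19.5 ± 7.05 CPM in rhodamine-negative sorts. Neither passed. Of the genes for folding and transport, the chaperone Hsp90b1 (gp96), on which most Toll-like receptors depend, was higher by 0.53 ± 0.08 (SE), at 952 ± 110.1 CPM in rhodamine-positive and 660.3 ± 82.0 CPM in rhodamine-negative sorts. It was higher in 6 of 6 pairs and passed in all 18 alternatives. Unc93b1, the escort of the endosomal receptors, averaged 1081 ± 126 CPM in rhodamine-positive and 1013 ± 231 CPM in rhodamine-negative sorts and did not pass. Of 3 testable genes for host proteins described as ligands, Hmgb1 was higher by 0.28 ± 0.08 (SE) and passed in 10 of 18 alternatives, but not without mouse 2, 3 or 6, with an adjusted p of at most 0.263 over all of them.

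Several enzymes of the endolysosome that cut the endosomal receptors or their ligands were higher. Of 11 such genes 5 were higher and 1 was lower, with a median of 0.12, while 26.2% of all genes were called in either direction. The proteases Ctsb (1.10 ± 0.12, SE), Lgmn (0.73 ± 0.11) and Ctsl (0.65 ± 0.17), for which cleavage of TLR9 or TLR7 has been described, were higher in 6 of 6 pairs. Ctsb reached 19150.2 ± 1436 CPM in rhodamine-positive and 9137 ± 1964 CPM in rhodamine-negative sorts. The nucleases Pld3 (0.83 ± 0.14) and Dnase2a (0.65 ± 0.16), which break down DNA in endolysosomes, were also higher, whereas the secreted nuclease Dnase1l3 was lower by 1.11 (SE 0.28) at 3.87 ± 3.17 CPM in rhodamine-positive and 8.03 ± 7.76 CPM in rhodamine-negative sorts. Dnase1l3 was not called without mouse 6 and Ctsl not without mouse 2, and neither passed without the block, with adjusted p values of at most 0.222 for Dnase1l3 and 0.0672 for Ctsl. Ctss, Ctsk, Pld4, Rnaset2a and Rnaset2b did not pass, and Rnaset2a and Rnaset2b are near-identical copies whose reads may be split.

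In the signalling arm below the receptors, the share of genes called was near that of all genes. Of 26 adaptors, kinases and interferon regulatory factors 6 were called, each lower, where 26.2% of all genes were called and 1986 of 15014 were lower, and the list median was -0.20 against -0.02 over all genes. Myd88, the shared adaptor, averaged 159 ± 17.1 CPM in rhodamine-positive and 213 ± 21.9 CPM in rhodamine-negative sorts, fell by 0.43 on the log2 scale (SE 0.08, adjusted p = 0.00391 in edgeR), and was lower in 6 of 6 pairs. The kinase genes of NF-kB activation Ikbkb (-0.85 ± 0.13, SE) and Chuk (-0.72 ± 0.12) fell further, and the ubiquitin ligase gene Peli1 (-0.66 ± 0.16), Irf5 (-0.38 ± 0.08), a transcription factor that acts with MyD88, and Irak2 (-0.27 ± 0.09) were lower. Irak2 passed in 9 of 18 alternatives and not without mouse 1, 2, 3, 4 or 6 (adjusted p at most 0.166), and Peli1 did not pass without the block (at most 0.103). Ticam1, the TRIF adaptor used by TLR3 and TLR4, averaged 24.3 ± 3.77 CPM in rhodamine-positive and 27.9 ± 4.71 CPM in rhodamine-negative sorts and did not pass. With library size alone 14 of the 26 were called lower, with a list median of -0.35, and 3142 of 15014 genes were lower, with a median of -0.18.

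Of 12 genes for inhibitors of the pathway, 5 were called, each lower, with a median of -0.31, where 26.2% of all genes were called and 1986 of 15014 were lower. Tnip3, an A20-binding inhibitor of NF-kB, fell by 2.71 (SE 0.16), at 4.14 ± 1.44 CPM in rhodamine-positive and 28.2 ± 14.2 CPM in rhodamine-negative sorts. Socs1 (-1.57 ± 0.21, SE), Il1rl1 (-1.26 ± 0.36), Sigirr (-0.62 ± 0.16) and Tnfaip3 (-0.39 ± 0.08), which encodes A20, were lower too. Il1rl1 encodes the IL-33 receptor, a marker of basophils and mast cells as well, and it passed in 11 of 17 alternatives, not without mouse 1, 2, 3 or 5 (adjusted p at most 0.126). Sigirr did not pass without mouse 6 (at most 0.174), nor Tnfaip3 without the block (0.107). With library size alone 8 of the 12 were called lower, beside 3142 of 15014 genes.

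Several genes that Toll-like receptor signals are known to induce, cytokines among them, were lower in the TAMs that carried nanoparticles. Of 16 such genes, 8 were lower and 1 was higher, with a median of -0.54, where 26.2% of all genes were called, 1955 of 15014 higher and 1986 lower. Il1b averaged 336 ± 73.2 CPM in rhodamine-positive and 1257 ± 203 CPM in rhodamine-negative sorts and fell by 1.91 on the log2 scale (SE 0.12, adjusted p = 1.82e-06 in edgeR). Il6 averaged 3.23 ± 1.82 CPM in rhodamine-positive and 47.8 ± 61.0 CPM in rhodamine-negative sorts and fell by 3.15 (SE 0.49). Ptgs2 (-1.39 ± 0.28, SE), Cxcl2 (-1.30 ± 0.22), Cd40 (-1.18 ± 0.13), Zc3h12a (-0.59 ± 0.17), Nfkbiz (-0.49 ± 0.11) and Ccl5 (-0.29 ± 0.09) were lower as well. Ccl5 passed in 10 of 18 alternatives, and not without mouse 1, 2, 4, 5 or 6 (adjusted p at most 0.343), and Zc3h12a in 12, not without mouse 1, 2, 3, 5 or 6 (at most 0.127). Nfkbiz did not pass without the block (0.165). Saa3, an acute-phase protein that is itself described as a ligand of TLR4, was higher by 2.18 ± 0.21 (SE). Tnf averaged 206 ± 69.9 CPM in rhodamine-positive and 229.6 ± 86.3 CPM in rhodamine-negative sorts and did not pass, nor did Il10, Il12b, Ifnb1, Cxcl10, Nos2 or Acod1. All 7 dendritic cell markers, all 3 testable basophil and mast cell markers and 3 of 6 monocyte markers were lower too. Of the monocyte markers that did not pass, Ly6c2 and Vcan had negative estimates and Chil3 a positive one (0.70 ± 0.34, SE). The part of these cell types in the fall of the induced genes was not tested.

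**Figure D5:**
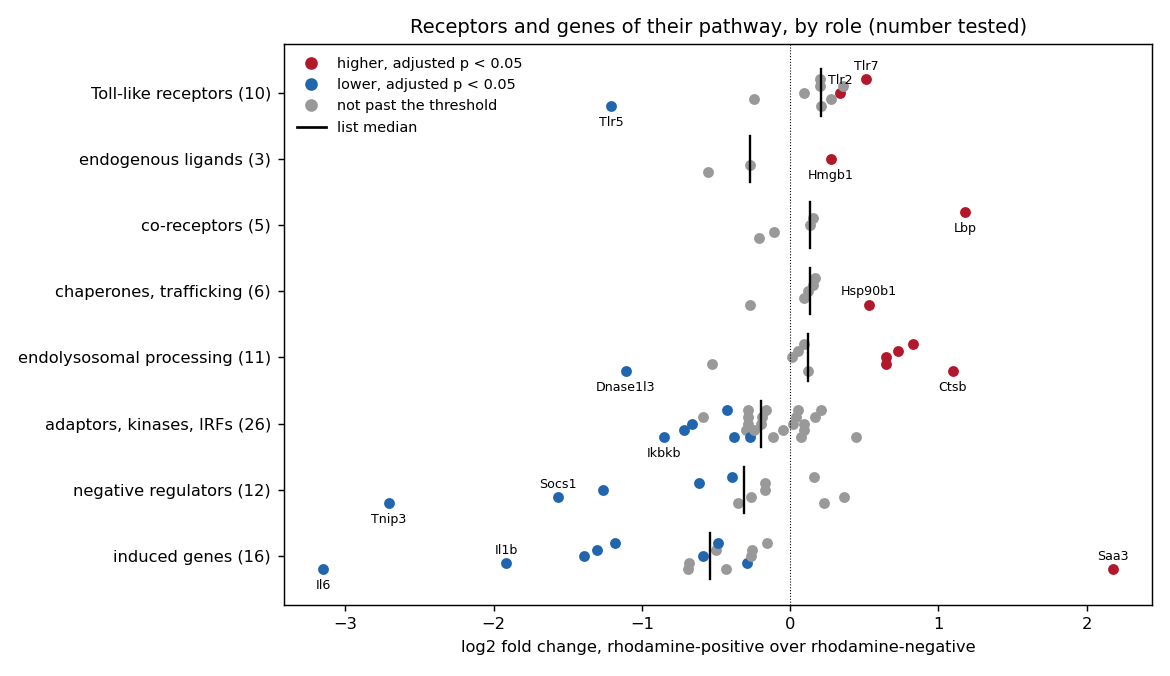
Log2 fold change, rhodamine-positive over rhodamine-negative (x axis), of the receptors and of the testable genes of their pathway in rows by role, with the number tested in brackets and a bar at each list's median. The receptors' median lies at 0.21, that of the adaptors at -0.20 and that of the induced genes at -0.54.

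The genes whose levels followed a called receptor most closely over the 12 libraries were sought among 8597 named genes for Tlr7 and 8598 for Tlr5 whose log2 CPM averaged 3 or more. For Tlr7 they were G6pc3 (Pearson r = 0.965), a glucose-6-phosphatase, Npl (r = 0.957), a sialic acid lyase, and Apmap (r = 0.956). For Tlr5 they were Slc4a7 (r = 0.941), a bicarbonate transporter, Mta3 (r = 0.935) and Marcksl1 (r = 0.923). The libraries share mice and sorts, so these correlations are a description of the same contrast. G6pc3, Npl and Apmap were called higher (0.53, 1.17 and 0.64 on the log2 scale) and Slc4a7, Mta3 and Marcksl1 called lower (-0.40, -0.50 and -0.99) in rhodamine-positive sorts.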

How the data were processed

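Polyadenylated RNA of 12 sorts, 2 from each of 6 mice, was sequenced on an Illumina HiSeq. The authors deposited raw read counts per gene, as a table and 1 file per library with equal values, and a table of log2 values for 10605 genes, 9 of the 10 receptors among them. These deposited log2 values equalled log2 CPM plus a constant of -0.107 to 0.175 per library. The build was mm10 and the tools were HISAT2 2.1.0, featureCounts 1.4.4, bcl2fastq 2.17, limma, edgeR and cutadapt, per the submitters' processing notes. Their roles, parameters and the strand setting are not given in the sources used here.

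The deposited counts were tested in R 4.3.3 with edgeR 4.0.16 (quasi-likelihood test, filterByExpr with minimum count 10 and minimum total 15, TMM scaling, threshold 0.05). The mouse entered as a block, and p values were adjusted over 15014 genes by Benjamini and Hochberg. The genes tested held 99.8% of counts. An SE is the absolute log2 fold change over the square root of F, and pair differences use log2 CPM with a prior count of 2. Depth was 13073189 to 17379314 counts per library, so precision is lowest for Tlr5, Tlr8 and Tlr9. Female and male levels were compared on counts summed by mouse. Exon lengths and coordinates came from GENCODE vM21 on mm10. Replicates are separate mice per the labels, and all libraries carry 1 batch label.

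The mouse was blocked because the series description calls the sorts of an animal paired. Once group means were removed, the 2 sorts of mice 1 to 6 correlated over genes with r = 0.226, 0.207, 0.289, 0.0775, 0.302 and 0.450. The pair of mouse 4 lay below the best correlation with another mouse (0.187). Libraries of a group differed by more than counting noise (lowest chi-square per degree of freedom 20.8 in rhodamine-positive and 17.5 in rhodamine-negative sorts).

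The members and gene lists were chosen with earlier results of these data known. Named genes were all receptors, list genes past the threshold with up to 8 per list by smallest p, and the 3 genes most correlated with the top receptor in each direction. Some further list members are named as not passing, and some genes of the rule are left out here. On simulated counts of 14642 genes for the sort contrast, 23% of 100 genes given a log2 change of 0.5 and 78% of 100 given 1 were recovered, with 4 false calls among 105. No other gene was changed there, whereas 26.2% of all genes were called in the data. The adjustment is then stricter in the simulation, so these rates do not give the recovery in the data. Alternatives were leaving out each mouse, male mice alone, no block, other scalings and filters, offsets for length or for GC content and length, DESeq2 1.42.0, and limma 3.58.1 as voom or on the deposited log2 table.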

Additional observations from a re-analysis of the deposited data

Results flagged for a closer look

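Among the 6 libraries or 6 pair differences of each receptor, 30 groups in all, 3 held a value whose gap to its nearest neighbour was large for the group's range. Chance flags about 1 in 20 such groups. The pair difference of Tlr2 in mouse 5 was 0.8752 on the log2 scale, and the nearest other mouse had 0.3234. The pair difference of Tlr6 in mouse 5 was 0.9232, and the nearest had 0.381. The level of Tlr5 in the rhodamine-positive sort of mouse 4 was 2.576 CPM, and the nearest rhodamine-positive sort had 1.316 CPM. Both flags of mouse 5 come from the same pair of libraries.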

How the results depend on the processing

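Of the 3 receptors called, Tlr7 passed in all 18 alternatives, Tlr2 in 10 of 18 and Tlr5 in 11 of 17. The estimates of Tlr1, Tlr4 and Tlr9 kept their sign and stayed short of the threshold in all 18. Without the replicate block, 1 receptor was called higher and 0 lower (2668 genes called in all), with log2 fold changes of 0.3377 for Tlr2 and -1.162 for Tlr5. The deposited log2 table, which lacks Tlr5, gave 1 higher and 0 lower (Tlr2 0.3066), and library size alone gave 1 higher (Tlr2 0.1783), with Tlr8 reversed at -0.06991. That scaling split the calls over all genes into 852 higher and 3142 lower, against 1955 and 1986 with TMM. With an offset for GC content and length, 5 receptors were called higher, with Tlr3 at 0.3704, Tlr6 at 0.3554 and Tlr13 at 0.2266. Tlr13 also passed with an offset for length (0.2101) and Tlr6 with limma-voom (0.3606). In male mice alone 2227 genes were called, with 1 receptor higher and 0 lower (Tlr2 0.2001, Tlr5 -0.9875). The fewer samples of that fit belong to its construction, and for the other settings the cause was not tested.

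With 1 mouse left out at a time, 1 to 2 receptors were called higher and 0 to 1 lower, and Tlr2 ranged from 0.239 to 0.3837, Tlr5 from -1.495 to -1.041 and Tlr6 from 0.2509 to 0.4066. Tlr8 ranged from -0.09846 to 0.2662, reversed without mouse 1 (-0.03) and mouse 4. Genes that differed between the sexes in level numbered 6 to 178, and 92 with library size alone, and those with a sex difference in the sort effect 0 to 4. The values 178 and 4 came without mouse 6, which leaves 1 female mouse that is assumed to vary like the males. Without mouse 5, which also leaves 1, they were 51 and 0. Depth limits Tlr5 and Tlr9, with at most 76 and 92 counts in a library.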
